A study of Mus musculus with 11 samples.

Results

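The transforming growth factor beta (TGF-beta) pathway was followed through 9 genes in microglia, the immune cells that live in the brain: the ligand Tgfb1, the receptors Tgfbr1 and Tgfbr2, the signal carrier Smad3, the inhibitors Smad7 and Pmepa1, and the targets Tgfbi, Tgm2 and Olfml3. They are 9 of the 16934 genes in the count table, picked by symbol, and all 9 were among the 11276 genes tested. Pmepa1, Tgfbi, Tgm2 and Olfml3, called the target genes here, were picked because earlier results showed them higher in microglia beside neurons. Their levels and calls against microglia alone are therefore a description of that choice and no test of it.

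TGF-beta is secreted in a latent form and held inactive until it is released at the cell surface. The active ligand binds a type II receptor, which recruits and switches on a type I receptor, and this receptor phosphorylates Smad2 and Smad3, which enter the nucleus with Smad4 and act on target genes. Several targets, Smad7 and Pmepa1 among them, feed back and damp the pathway. In the brain, microglia depend on TGF-beta for their resting identity.

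The series holds 11 libraries of 3′ mRNA sequencing, a method that reads 1 short stretch near the end of each transcript. All were made from primary microglia of newborn C57BL/6 mice, grown in medium with fetal calf serum and not passaged. In the fibril co-culture (4 libraries) the microglia spent 6 h with primary cortical neurons, 14 days in culture, that had first taken up labelled α-synuclein fibrils at 0.1 µM for 16 h and been washed. In the untreated co-culture (3 libraries) the neurons had received no fibrils, and microglia alone (4 libraries) had no neurons. α-Synuclein forms the aggregates of Parkinson's disease. The labels used here state neither how microglia were parted from neurons nor whether replicate libraries trace back to different cultures or mice. A p-value therefore reflects the spread among these particular libraries, and that spread may be technical.

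Levels are given in CPM, counts scaled to a common library size. Total counts ran from 8253070 to 14844071 in the fibril co-culture, from 10925771 to 16802451 in the untreated co-culture and from 10700940 to 14541179 in microglia alone. The ribosomal RNA gene Rn45s took 11% to 17% of them in the fibril co-culture and 10.7% to 15.7% in the untreated co-culture. In microglia alone its share was 14% to 24.8%. All 20 microglia and macrophage markers had counts in every group, with summed levels of 22870 to 29370 CPM in the fibril co-culture, 26010 to 29090 CPM in the untreated co-culture and 20980 to 23140 CPM in microglia alone. The 20 neuron markers summed to 27.0 to 73.7 CPM in the fibril co-culture, 10.1 to 59.1 CPM in the untreated co-culture and 120 to 222 CPM in microglia alone, so their sum was lower where neurons had been present. Single markers went both ways. Dcx was at means of 2.59 CPM in the fibril co-culture, 0.0403 CPM in the untreated co-culture and 48.6 CPM in microglia alone. Camk2a was at 8.27 CPM in the fibril co-culture, 10.6 CPM in the untreated co-culture and 0.471 CPM in microglia alone. Libraries of 1 group were hardly more alike than libraries of different groups, with median correlations of log2 levels across genes of 0.784 within and 0.778 between groups. The common biological coefficient of variation was 1.15.

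The ligand and both receptors showed no common pattern, and the inhibitory Smad7 was highest beside fibril-loaded neurons at a low count. The target genes, in contrast, were low in each library of microglia alone and several-fold higher in every co-culture library. This held with fibrils and without, and none of the 9 genes passed the test between the co-cultures. In these bulk libraries a change in the number of cells that express a gene and a change in RNA per cell cannot be told apart.

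**Figure D1:**
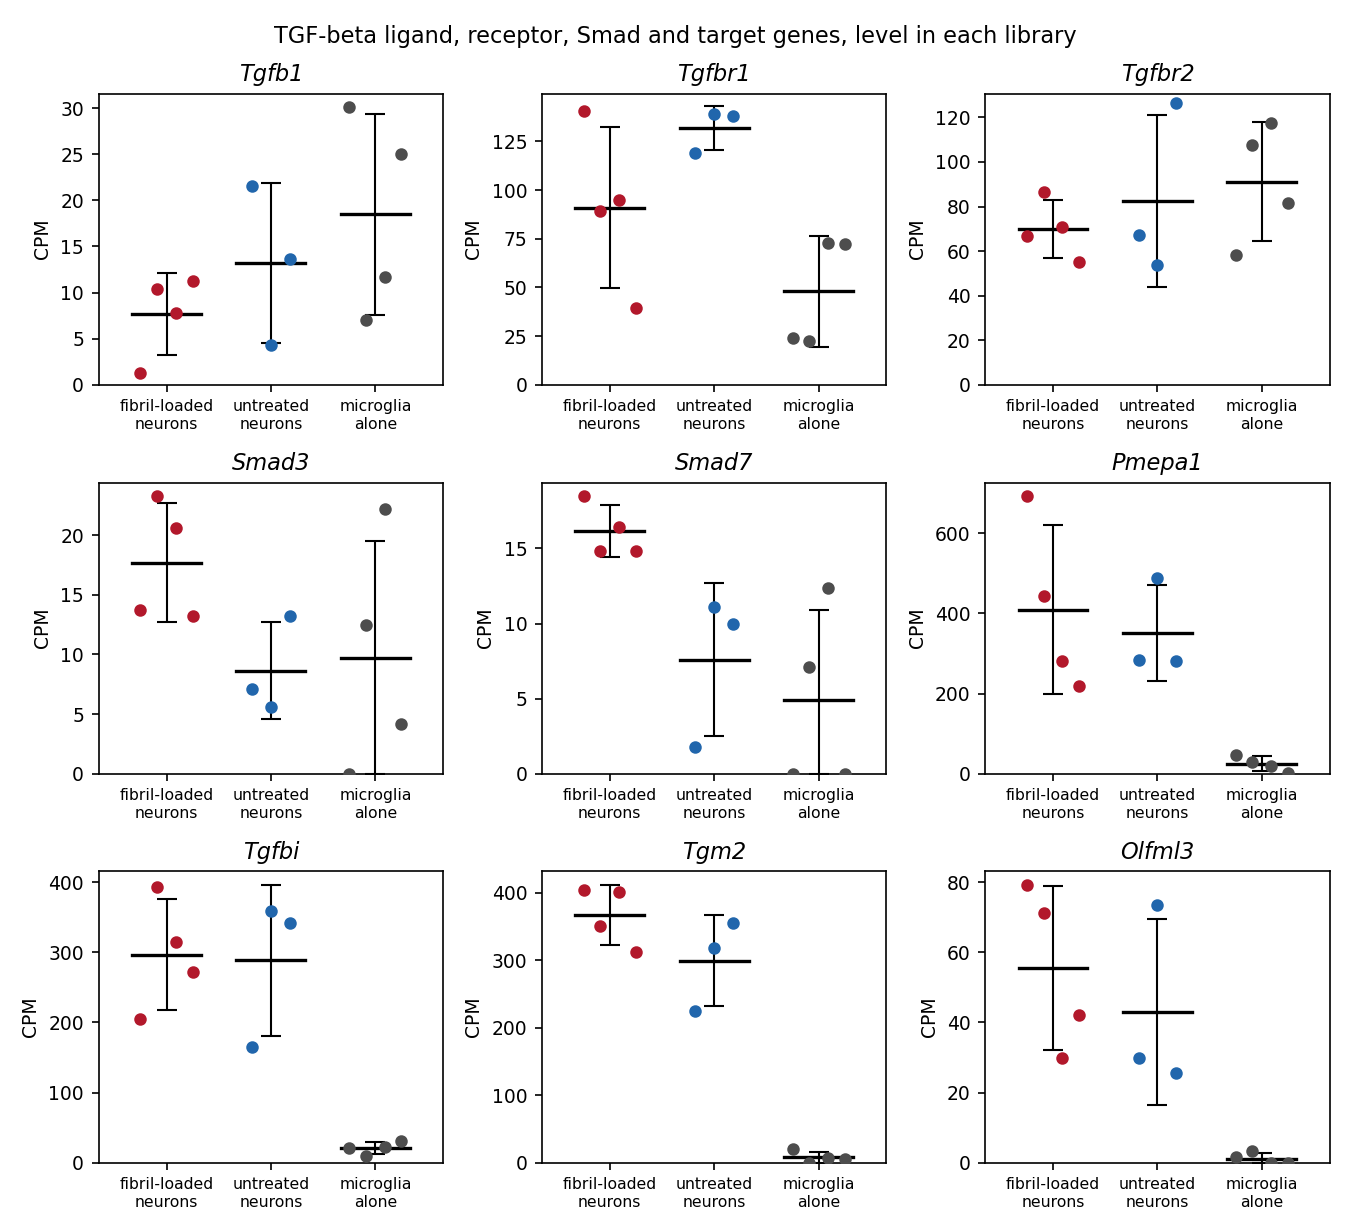
Level of each of the 9 genes in CPM (vertical axes, linear, each with its own scale) in each library (points) of the fibril co-culture, the untreated co-culture and microglia alone. Bars give the mean and SD (n = 4, 3 and 4), with lower ends stopped at 0; the bottom row and Pmepa1 show co-culture libraries standing clear of microglia alone, while in the other panels Tgfbr1 beside untreated neurons and Smad7 beside fibril-loaded neurons alone lie clear of it.

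Tgfb1 encodes TGF-beta 1, the form of the ligand that microglia make. It lies on chromosome 7 from 25687002 to 25705077 (GRCm38, the build also called mm10, plus strand). Its level was 1.32, 10.4, 7.79 and 11.2 CPM in the fibril co-culture, 21.6, 4.30 and 13.7 CPM in the untreated co-culture, and 30.2, 7.04, 11.7 and 25.1 CPM in microglia alone. The groups overlapped, and the libraries of each group were spread several-fold. The mean level was 7.68 ± 4.48 CPM in the fibril co-culture, 13.2 ± 8.65 CPM in the untreated co-culture and 18.5 ± 10.9 CPM in microglia alone (SD, n = 4, 3 and 4). The log2 fold change was -1.27 (SE 1.08) for the fibril co-culture and -0.49 (SE 1.15) for the untreated co-culture against microglia alone. No neighbours in this order of means differed beyond their spread. The lowest library had 19 counts and the highest had 385, and the coefficient of variation was 58.4% in the fibril co-culture, 65.6% in the untreated co-culture and 59.0% in microglia alone. Counting alone would give 10.5%, 6.87% and 6.71% for those groups.

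Tgfbr1 encodes the type I receptor, the kinase that phosphorylates Smad3, and lies on chromosome 4 from 47353222 to 47414931 (plus strand). Its level was 141, 89.1, 94.7 and 39.5 CPM in the fibril co-culture, 119, 139 and 138 CPM in the untreated co-culture, and 24.0, 22.6, 72.6 and 72.6 CPM in microglia alone. All 3 untreated co-culture libraries lay above all 4 of microglia alone, whereas library 4 of the fibril co-culture fell inside the range of microglia alone. Means were 91.0 ± 41.3 CPM in the fibril co-culture, 132 ± 11.4 CPM in the untreated co-culture and 47.9 ± 28.5 CPM in microglia alone. Against microglia alone the log2 fold change was 0.92 (SE 0.43) in the fibril co-culture and 1.46 (SE 0.46) in the untreated co-culture. edgeR did not call Tgfbr1 in either comparison, although it was called in the untreated co-culture with no low-count filter (log2 fold change 1.45). Microglia alone fell into a lower and a higher pair of libraries, and the coefficient of variation there was 59.4% against 8.60% in the untreated co-culture.

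Tgfbr2 encodes the type II receptor, which binds the ligand first, and lies on chromosome 9 from 116084293 to 116175360 (minus strand). Its level was 66.9, 86.5, 70.7 and 54.9 CPM in the fibril co-culture, 67.4, 54.0 and 127 CPM in the untreated co-culture, and 58.4, 107, 117 and 81.4 CPM in microglia alone. The 3 groups overlapped throughout. The mean level was 69.8 ± 13.03 CPM in the fibril co-culture, 82.7 ± 38.6 CPM in the untreated co-culture and 91.1 ± 26.6 CPM in microglia alone, and the log2 fold change against microglia alone was -0.39 (SE 0.36) in the fibril co-culture and -0.14 (SE 0.39) in the untreated co-culture. The ratio of Tgfbr1 to Tgfbr2 counts, read within each library, was 2.10, 1.03, 1.34 and 0.719 in the fibril co-culture, 1.77, 2.58 and 1.09 in the untreated co-culture, and 0.411, 0.211, 0.619 and 0.891 in microglia alone. The ratio was higher in each untreated co-culture library than in any library of microglia alone, and library 4 of the fibril co-culture again fell among microglia alone.

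Smad3 encodes the receptor-activated Smad that carries the TGF-beta signal to the nucleus, and lies on chromosome 9 from 63646767 to 63757994 (minus strand). Its level was 13.8, 23.2, 20.6 and 13.2 CPM in the fibril co-culture, 7.14, 5.56 and 13.2 CPM in the untreated co-culture, and 0, 12.5, 22.1 and 4.18 CPM in microglia alone. Library 1 of microglia alone had no count, where 3 counts would have been 0.235 CPM. The groups overlapped, although 1 untreated library alone reached the fibril co-culture. On average it was at 17.7 ± 4.99 CPM in the fibril co-culture, 8.64 ± 4.04 CPM in the untreated co-culture and 9.70 ± 9.78 CPM in microglia alone, with a log2 fold change against microglia alone of 0.87 (SE 1.27) in the fibril co-culture and -0.17 (SE 1.37) in the untreated co-culture.

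Smad7 encodes the inhibitory Smad, which blocks the type I receptor and is itself induced by TGF-beta. Its level was 18.5, 14.8, 16.4 and 14.9 CPM in the fibril co-culture, 1.75, 11.1 and 9.96 CPM in the untreated co-culture, and 0, 7.14, 12.4 and 0 CPM in microglia alone. The fibril co-culture lay above both other groups without overlap and its libraries were close together, while the untreated co-culture and microglia alone overlapped. Mean levels were 16.2 ± 1.72 CPM in the fibril co-culture, 7.61 ± 5.10 CPM in the untreated co-culture and 4.89 ± 6.04 CPM in microglia alone. Against microglia alone the log2 fold change was 1.72 (SE 1.61) in the fibril co-culture and 0.64 (SE 1.68) in the untreated co-culture. Smad7 had 792 counts in all in the fibril co-culture, 321 in the untreated co-culture and 212 in microglia alone, and counts in single libraries ran from 0 to 266.

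Pmepa1 encodes a membrane protein that sequesters receptor-activated Smads, and lies on chromosome 2 from 173224458 to 173276533 (minus strand). Its level was 692, 443, 282 and 219 CPM in the fibril co-culture, 284, 489 and 280.4 CPM in the untreated co-culture, and 46.5, 30.4, 18.8 and 2.34 CPM in microglia alone. The lowest co-culture library stood well above the highest library of microglia alone, and the co-cultures overlapped. The mean level was 409 ± 210.5 CPM in the fibril co-culture, 351 ± 120 CPM in the untreated co-culture and 24.5 ± 18.6 CPM in microglia alone. The log2 fold change against microglia alone was 4.06 (SE 0.59) in the fibril co-culture and 3.84 (SE 0.60) in the untreated co-culture. As a ratio of means the level was 16.7 times that of microglia alone in the fibril co-culture and 14.3 times in the untreated co-culture. Of the target genes it varied most within the fibril co-culture, with a coefficient of variation of 51.5%.

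Tgfbi encodes a secreted matrix protein first named for its induction by TGF-beta, and lies on chromosome 13 from 56609523 to 56639562 (plus strand). Its level was 205, 394, 315 and 272 CPM in the fibril co-culture, 165, 359 and 342 CPM in the untreated co-culture, and 20.4, 9.92, 21.9 and 30.4 CPM in microglia alone. Again the co-cultures overlapped each other and lay far from microglia alone. Group means were 296 ± 79.2 CPM in the fibril co-culture, 289 ± 107 CPM in the untreated co-culture and 20.6 ± 8.38 CPM in microglia alone. The log2 fold change against microglia alone was 3.84 (SE 0.38) in the fibril co-culture and 3.80 (SE 0.39) in the untreated co-culture, the smallest standard errors among the target genes. No library of Tgfbi had fewer than 100 counts.

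Tgm2 encodes transglutaminase 2, an enzyme that cross-links matrix proteins and that cells in culture have been found to use in releasing latent TGF-beta. It lies on chromosome 2 from 158116402 to 158146436 (minus strand). Its level was 404, 352, 401 and 312 CPM in the fibril co-culture, 224, 318 and 356 CPM in the untreated co-culture, and 19.8, 0, 6.47 and 5.27 CPM in microglia alone. Every co-culture library was above every library of microglia alone, and library 2 of microglia alone had no count. The mean level was 367 ± 44.1 CPM in the fibril co-culture, 299 ± 67.6 CPM in the untreated co-culture and 7.89 ± 8.43 CPM in microglia alone, and the log2 fold change against microglia alone was 5.53 (SE 0.75) in the fibril co-culture and 5.24 (SE 0.75) in the untreated co-culture. Within the fibril co-culture the coefficient of variation was 12.01%, the lowest of the target genes in that group. Exons of Tgm2 overlap Rprd1b on the opposite strand, and the use of strand in counting is not given in the sources used here, so reads of the pair may be mixed. Rprd1b, a gene of the transcription machinery, was at 17.1 ± 8.09 CPM in the fibril co-culture, 35.9 ± 14.1 CPM in the untreated co-culture and 17.7 ± 12.2 CPM in microglia alone.

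Olfml3 encodes a secreted olfactomedin-like protein known as a microglial gene that depends on TGF-beta, and lies on chromosome 3 from 103722222 to 103738001 (minus strand). Its level was 79.1, 71.2, 29.8 and 42.0 CPM in the fibril co-culture, 29.9, 73.4 and 25.5 CPM in the untreated co-culture, and 1.57, 3.27, 0 and 0 CPM in microglia alone. The co-cultures overlapped and both were apart from microglia alone, where the 4 libraries together held 53 counts. The mean level was 55.5 ± 23.4 CPM in the fibril co-culture, 42.9 ± 26.5 CPM in the untreated co-culture and 1.21 ± 1.56 CPM in microglia alone, with a log2 fold change against microglia alone of 5.52 (SE 1.07) in the fibril co-culture and 5.15 (SE 1.08) in the untreated co-culture.

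Against microglia alone, 4 of the 9 genes were called higher in the fibril co-culture, where edgeR's quasi-likelihood test called 0.266% of all tested genes higher at a Benjamini-Hochberg (BH) adjusted p below 0.05. In the untreated co-culture 4 of the 9 were called higher against 0.461% of all tested genes. The called genes were Pmepa1, Tgfbi, Tgm2 and Olfml3 in both, and none of the 9 was called lower. The Olfml3 call was absent in the fibril co-culture without library 1 or 2 of that group (log2 fold change 5.30 and 5.38) or library 1 of microglia alone (5.69), and in the untreated co-culture without library 2 of that group (4.51) or library 1 of microglia alone (5.30). It was also absent in both with only the 2 groups compared, and limma called Tgfbi alone of the 9. CPM ranges lay apart and higher for 5 of the 9 in each comparison, against 2.7% of all tested genes in the fibril co-culture and 4.9% in the untreated co-culture; the fifth gene was Smad7 in the fibril co-culture and Tgfbr1 in the untreated co-culture. For the target genes these counts only restate how they were picked. Smad7 and Tgfbr1 were not among the genes picked for being higher, and edgeR called neither in the chosen analysis. Both comparisons use the same 4 libraries of microglia alone.

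**Figure D2:**
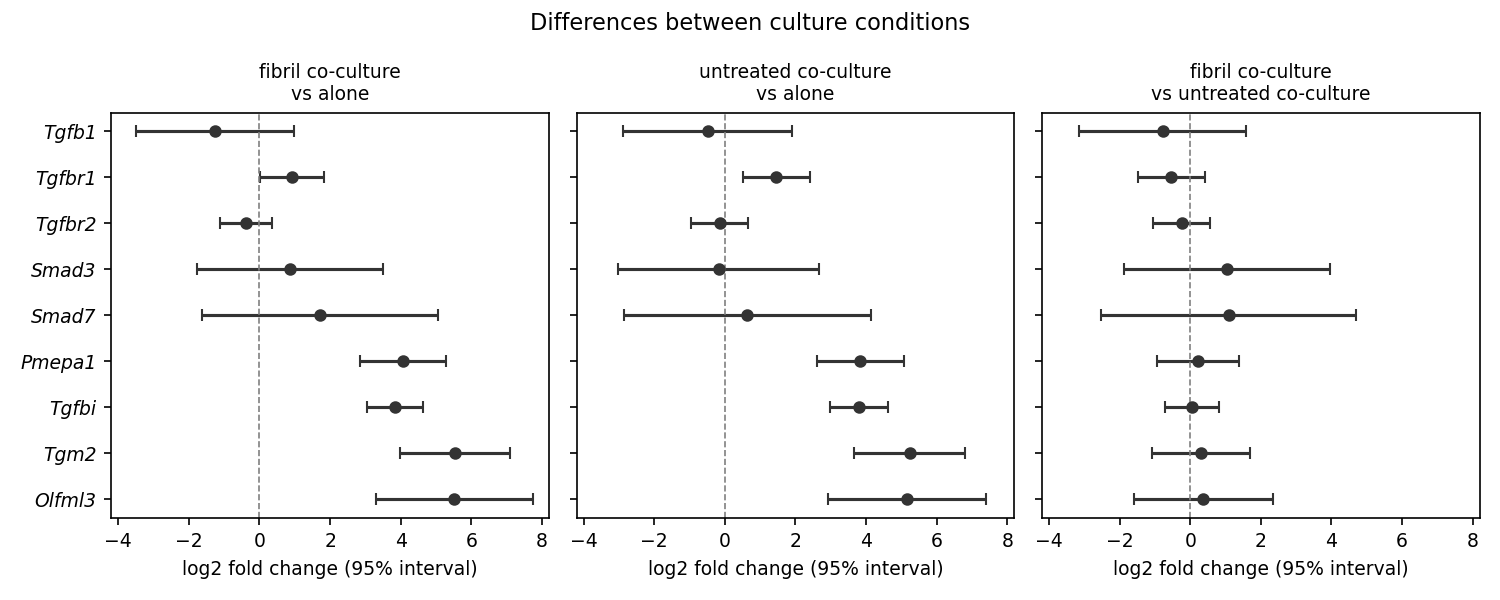
Log2 fold change (horizontal axis) of the 9 genes in the fibril co-culture against microglia alone, the untreated co-culture against microglia alone, and the fibril co-culture against the untreated co-culture. Points are edgeR estimates and bars their 95% intervals; in the panel on the right every interval holds 0, and those of Smad7 and Smad3 are the widest.

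Tgfbi and Olfml3 have a promoter window in the RefSeq table of GRCm38.p6, shown because these target genes were both higher beside neurons and differ in the short motifs bound by Smads. Each window holds 250 bases before the RefSeq start and 50 from it on; for Tgfbi that start, 56609586, lies 63 bases downstream of the gene start given above, and for Olfml3 the starts are the same. Capitals mark matches on either strand to the core of the Smad-binding CAGA box, CAGAC, and to a GC-rich Smad motif, GGCGC, so a match to the opposite strand appears as the reverse complement. The Tgfbi window is chr13:56609336-56609635 on the plus strand and the Olfml3 window is chr3:103737952-103738251 on the minus strand, printed 5′ to 3′ along the gene.
Tgfbi: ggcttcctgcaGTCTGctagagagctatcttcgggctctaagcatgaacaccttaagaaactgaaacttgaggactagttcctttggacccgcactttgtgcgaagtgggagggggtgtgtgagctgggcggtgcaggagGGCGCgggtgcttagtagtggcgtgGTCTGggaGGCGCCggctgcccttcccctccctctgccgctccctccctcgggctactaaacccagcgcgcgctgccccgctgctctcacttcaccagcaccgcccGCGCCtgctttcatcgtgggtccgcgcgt
Olfml3: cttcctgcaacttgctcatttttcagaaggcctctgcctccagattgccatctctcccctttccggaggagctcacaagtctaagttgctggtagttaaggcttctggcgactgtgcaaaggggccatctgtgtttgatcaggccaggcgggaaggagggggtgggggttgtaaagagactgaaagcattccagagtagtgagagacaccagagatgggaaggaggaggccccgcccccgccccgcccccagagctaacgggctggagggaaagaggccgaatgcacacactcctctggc
The Tgfbi window held 2 matches to CAGAC, at positions -239 and -85 from the RefSeq start, and 4 to GGCGC, at -110, -77, -76 and 21, of which the pair at -77 and -76 overlaps on opposite strands. The Olfml3 window held neither. Of 32817 promoter windows of this length, 49.6% held CAGAC and 36.8% held GGCGC, so such matches are common, and the Tgfbi window is rich in G and C (63.3%, against 58.0% for Olfml3). Neither window held the Smad palindrome GTCTAGAC (0.213% of all windows), the AP-1 motif TGANTCA (7.81%) or GAGGAAGT, a motif of the myeloid factor PU.1 (3.20%). A match describes letters in the window and is not evidence of binding. Of the 9 genes, 6 had a window in the table; Pmepa1, Tgm2 and Smad7 had no entry.

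The fibril co-culture was set against the untreated co-culture to show what the fibrils added, and the choice of the target genes did not rest on this comparison. None of the 9 genes passed in edgeR's quasi-likelihood test, the smallest unadjusted p was 0.254, for Tgfbr1, and the BH-adjusted p was 1 for each. DESeq2 and limma also called 0 of the 9. Over all tested genes edgeR called 0% (445 genes at an unadjusted p below 0.05, 3.95%), DESeq2 170 genes (1.38%) and limma 11 (0.0976%). The mean of each target gene was a little higher with fibrils, by 1.03 times for Tgfbi, 1.17 for Pmepa1, 1.23 for Tgm2 and 1.29 for Olfml3, and the libraries of the co-cultures overlapped for each. On leaving out 1 library the log2 fold change ran from -0.16 to 0.54 for Pmepa1 and from -0.22 to 0.23 for Tgfbi, so a single library can turn the direction for both.

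Precision differed between the genes. For Tgfbi the log2 fold change was 0.04, with a 95% interval from -0.73 to 0.80, that is from 0.604 to 1.75 times the level without fibrils. Tgfbr2 (-0.25, from -1.05 to 0.56) and Tgfbr1 (-0.54, from -1.49 to 0.42) had intervals of similar width. For Pmepa1 the log2 fold change was 0.22 (from -0.94 to 1.39), for Tgm2 0.29 (from -1.09 to 1.68) and for Olfml3 0.37 (from -1.60 to 2.34). The interval ran from -3.14 to 1.58 for Tgfb1 (-0.78), from -1.88 to 3.95 for Smad3 (1.03) and from -2.53 to 4.70 for Smad7 (1.09). Only Smad7 had CPM ranges that lay apart between the co-cultures, as did 2.39% of all tested genes on the higher side, and its edgeR unadjusted p was 0.539. The half-width of the interval was 1.38 at the median of the 9 genes and ran from 0.765 to 3.61, so the intervals of the Smads and the ligand hold differences of several-fold either way. A p above the threshold does not show that the co-cultures were alike.

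The rest of the pathway was read from 5 lists of other genes, together 173 genes of which 124 were tested. The lists, too, were chosen with earlier results of these data known. Their calls against microglia alone, here and in the list paragraphs below, are therefore a description and no independent test. In the fibril co-culture against microglia alone 4 of these 124 were called higher and 0 lower, and in the untreated co-culture 4 were called higher and 0 lower. Over all tested genes 0.266% were called higher and 0.0532% lower in the fibril co-culture, and 0.461% higher and 0.177% lower in the untreated co-culture; these shares are the background for each list below. An unadjusted p below 0.05 was seen for 16 of the 124 in the fibril co-culture (8.14% of all tested genes) and 19 in the untreated co-culture (10.3%). DESeq2 called 6 higher and 0 lower in the fibril co-culture and 8 higher and 4 lower in the untreated co-culture, and limma called 1, Spsb1, higher and 0 lower in each. Over all genes DESeq2 called 1.27% higher and 1.03% lower in the fibril co-culture and 1.58% higher and 2.67% lower in the untreated co-culture, and limma called 0.0621% higher and 0.0798% lower in the fibril co-culture and 0.0709% higher and 0.168% lower in the untreated co-culture. The median log2 fold change of the 124 was 0.02 in the fibril co-culture and 0.17 in the untreated co-culture, beside medians over all tested genes of -0.04 in the fibril co-culture and -0.05 in the untreated co-culture. Between the co-cultures edgeR, DESeq2 and limma each called 0 of the 124, with 3 at an unadjusted p below 0.05 in edgeR, and the median was -0.02 beside 0 for all tested genes.

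Of ligands and genes of latency and activation, 15 of 36 listed were tested and 1, Mmp14, was called higher in both comparisons with microglia alone. Mmp14 encodes a membrane-bound matrix protease that can release latent TGF-beta. Its level was 287 ± 144 CPM in the fibril co-culture, 315 ± 283 CPM in the untreated co-culture and 48.5 ± 9.22 CPM in microglia alone. The log2 fold change was 2.56 (SE 0.50, edgeR BH-adjusted p = 0.0195) in the fibril co-culture and 2.70 (SE 0.52, adjusted p = 0.015) in the untreated co-culture. Its call was lost in the fibril co-culture without library 1, 3 or 4 of that group or library 1, 2 or 4 of microglia alone, with log2 fold changes of 2.31 to 2.63. In the untreated co-culture the call was lost without library 3 of that group (1.72) or library 1, 2 or 4 of microglia alone (2.61 to 2.75). It was also lost in the fibril co-culture at a mean of at least 5 CPM (adjusted p = 0.0543). Thbs1, which encodes the TGF-beta activator thrombospondin 1, was at 11.7 ± 14.3 CPM in the fibril co-culture, 20.4 ± 9.77 CPM in the untreated co-culture and 0.322 ± 0.645 CPM in microglia alone, and the family ligand Gdf15 at 5.34 ± 2.70 CPM in the fibril co-culture, 2.06 ± 2.14 CPM in the untreated co-culture and 26.5 ± 19.7 CPM in microglia alone. Neither passed in edgeR; in the untreated co-culture DESeq2 called Thbs1 higher (adjusted p = 0.024) and Gdf15 lower (adjusted p = 0.012). The list median was 0.65 in the fibril co-culture (0.39 with genes at 0 in a group set to a bound from a floor of 3 counts in each library) and 0.24 in the untreated co-culture.

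Of the other receptors, 10 of 14 were tested and edgeR called 0 in either comparison with microglia alone, with 0 at an unadjusted p below 0.05 in the fibril co-culture and 1 in the untreated co-culture. DESeq2 and limma also called 0 of them. The list medians were 0.04 in the fibril co-culture and -0.32 in the untreated co-culture. The smallest unadjusted p belonged to Acvr1b, a type I activin receptor, at 17.9 ± 3.19 CPM in the fibril co-culture, 26.2 ± 5.78 CPM in the untreated co-culture and 6.48 ± 5.69 CPM in microglia alone. Bmpr1a, a type I receptor for bone morphogenetic proteins, was at 11.3 ± 8.28 CPM in the fibril co-culture, 2.82 ± 4.78 CPM in the untreated co-culture and 30.9 ± 19.4 CPM in microglia alone, and the pseudoreceptor Bambi, which lacks the kinase, at 10.4 ± 9.79 CPM in the fibril co-culture, 11.2 ± 11.6 CPM in the untreated co-culture and 0.802 ± 0.671 CPM in microglia alone. None of the 3 passed.

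Among other Smads and their regulators, 44 of 46 listed were tested, and 1 was called higher in the fibril co-culture and 2 in the untreated co-culture. Spsb1, which encodes an adaptor that marks the type II receptor for degradation, was at 10.0, 47.4, 25.3 and 19.3 CPM in the fibril co-culture, 57.3, 81.6 and 15.2 CPM in the untreated co-culture, and 0, 0.397, 0 and 0.585 CPM in microglia alone. It was close to absent from microglia alone and present in every co-culture library (edgeR BH-adjusted p = 0.00597 in the fibril co-culture and 0.0025 in the untreated co-culture), and its call in the fibril co-culture was lost with only the 2 groups compared (adjusted p = 0.102). Skil, which encodes the Smad repressor SnoN, was at 84.6 ± 28.8 CPM in the fibril co-culture, 114 ± 45.7 CPM in the untreated co-culture and 22.6 ± 12.03 CPM in microglia alone. It was called in the untreated co-culture (log2 fold change 2.34, SE 0.48, and an adjusted p of 0.022 in edgeR) and not in the fibril co-culture (1.90, SE 0.45, adjusted p = 0.0935), and the difference between the co-cultures did not pass (-0.43, SE 0.47, adjusted p = 1). The Skil call was lost without library 2 or 4 of microglia alone (2.07 and 2.25), library 3 of the untreated co-culture (2.00), or the fibril co-culture as a whole (adjusted p = 0.0783). In the fibril co-culture Skil was called with no low-count filter (adjusted p = 0.00252), with DESeq2 (0.00854) and with the replicate block (0.0457). Wwp1, which encodes a ubiquitin ligase of the pathway, was at 213 ± 91.5 CPM in the fibril co-culture, 284 ± 83.8 CPM in the untreated co-culture and 488 ± 268 CPM in microglia alone. It did not pass in edgeR, and with no low-count filter it was called lower in the fibril co-culture (log2 fold change -1.20, adjusted p = 0.0115). The list medians were -0.18 in the fibril co-culture and -0.11 in the untreated co-culture.

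Of further genes known to be induced by TGF-beta in various cells, 31 of 50 were tested, and 2 were called higher in each comparison with microglia alone: Mmp14 and Fn1 in the fibril co-culture, and Mmp14 and Skil in the untreated co-culture. Fn1, the fibronectin gene, was at 100.1, 173, 153 and 112 CPM in the fibril co-culture, 26.2, 85.2 and 98.7 CPM in the untreated co-culture, and 14.3, 14.1, 26.5 and 33.8 CPM in microglia alone. It passed in the fibril co-culture (log2 fold change 2.60, SE 0.45, and an adjusted p of 0.00584 in edgeR) and not in the untreated co-culture (1.66, SE 0.45, adjusted p = 0.112). All fibril co-culture libraries were above the untreated co-culture for Fn1, but the difference did not pass (0.94, SE 0.46, adjusted p = 1). Without library 1 of the untreated co-culture Fn1 passed there too (log2 fold change 2.05, adjusted p = 0.0306), as it did with no low-count filter (adjusted p = 0.0155) and with DESeq2 (adjusted p = 0.0304). DESeq2 called 4 genes of this list higher and 0 lower in the fibril co-culture, and 3 higher and 2 lower in the untreated co-culture. Of the 31 tested genes, 17 had a log2 fold change above 0 in the fibril co-culture and 21 in the untreated co-culture, so the list went both ways. The list medians were 0.30 in the fibril co-culture and 0.44 in the untreated co-culture.

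Among microglial genes known to depend on TGF-beta, 33 of 37 were tested and 1, Cx3cr1, was called higher in both comparisons with microglia alone. Cx3cr1 encodes the receptor through which microglia sense neuronal fractalkine. Its level was 1858 ± 521 CPM in the fibril co-culture, 1880 ± 313 CPM in the untreated co-culture and 602 ± 158 CPM in microglia alone, with a log2 fold change against microglia alone of 1.63 (SE 0.27, edgeR BH-adjusted p = 0.00527) in the fibril co-culture and 1.64 (SE 0.28, adjusted p = 0.00613) in the untreated co-culture. Mef2a and Mef2c, genes of transcription factors of microglial identity, stood on opposite sides of microglia alone: Mef2a was at 154 ± 34.5 CPM in the fibril co-culture, 184 ± 48.2 CPM in the untreated co-culture and 81.0 ± 28.2 CPM in microglia alone and Mef2c at 258 ± 59.2 CPM in the fibril co-culture, 207 ± 35.1 CPM in the untreated co-culture and 410 ± 76.6 CPM in microglia alone. Neither passed in edgeR; in the untreated co-culture DESeq2 called Mef2a higher (adjusted p = 0.0262) and Mef2c lower (adjusted p = 0.00713). The list medians were 0.03 in the fibril co-culture and 0.20 in the untreated co-culture. Olfml3, picked for its rise, is not on this list.

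**Figure D3:**
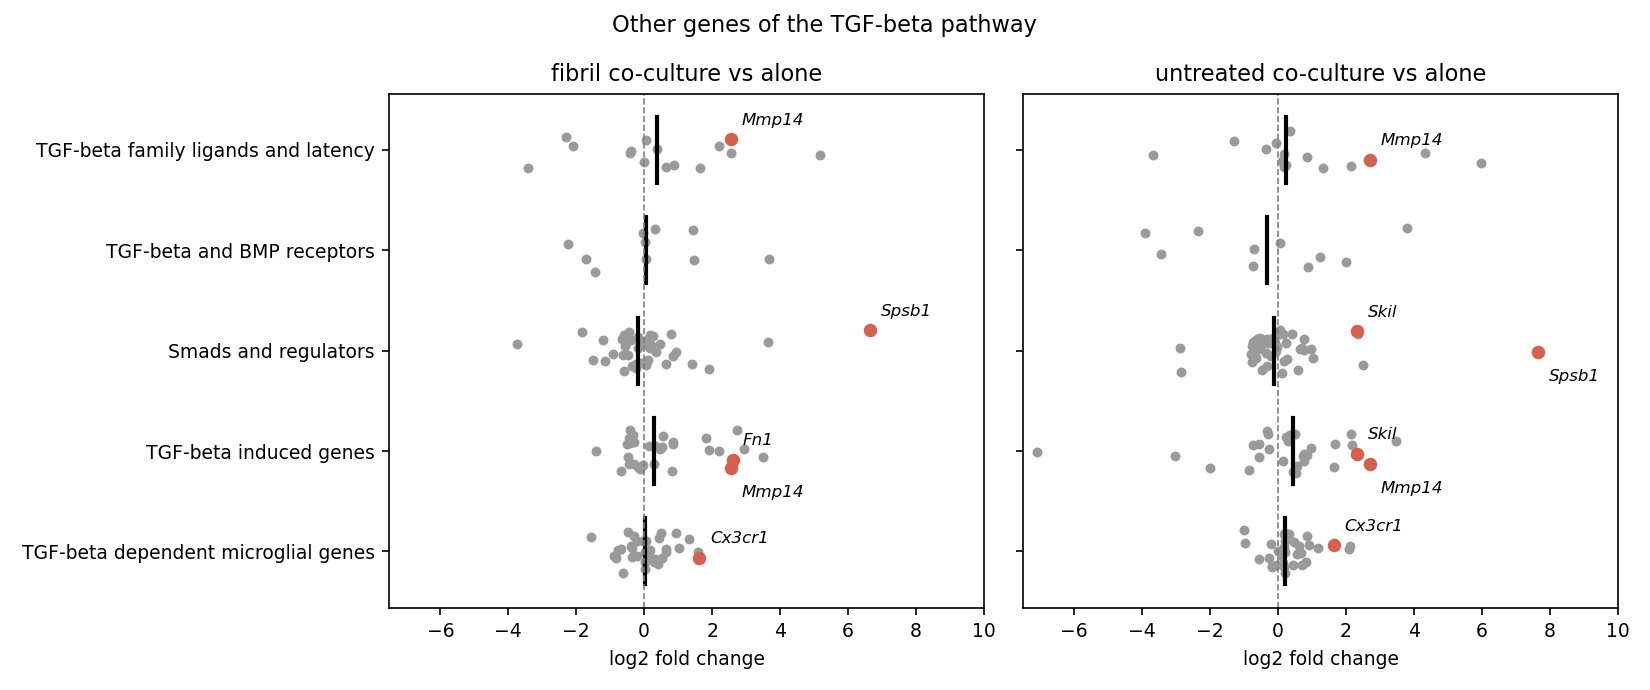
Log2 fold change against microglia alone (horizontal axis) of the tested genes of the 5 lists, in the fibril co-culture (left) and the untreated co-culture (right); each point is a gene, set at its bound where a group had no count, and black bars are list medians. Named red points passed at a BH-adjusted p below 0.05 in edgeR, all of them on the higher side, and the other points are spread around 0.

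Markers of other cell types were counted in the same libraries. Of 14 fibroblast and mural markers, 13 were in the table, and their sum was 47.4 to 113 CPM in the fibril co-culture, 48.1 to 78.7 CPM in the untreated co-culture and 19.7 to 37.3 CPM in microglia alone. Most of it was Cspg4, at means of 73.9 CPM in the fibril co-culture, 59.8 CPM in the untreated co-culture and 15.6 CPM in microglia alone; Dcn, Pdgfrb, Rgs5 and Col6a1 had no count in any group, and Col1a1 was at 0.461 CPM in the fibril co-culture, 0.0496 CPM in the untreated co-culture and 3.66 CPM in microglia alone. Cspg4 is also a marker of oligodendrocyte precursors, and the 10 oligodendrocyte lineage markers summed to 163 to 356 CPM in the fibril co-culture, 273 to 329 CPM in the untreated co-culture and 184 to 305 CPM in microglia alone. Astrocyte markers summed to 21.7 to 115 CPM in the fibril co-culture, 46.8 to 119 CPM in the untreated co-culture and 32.2 to 57.5 CPM in microglia alone. Of the 10 astrocyte markers, Slc1a2 was at means of 24.4 CPM in the fibril co-culture, 8.27 CPM in the untreated co-culture and 1.26 CPM in microglia alone, Gfap at 1.13 CPM in the fibril co-culture, 7.21 CPM in the untreated co-culture and 0 in microglia alone, and Sox9 at 2.95 CPM in the fibril co-culture, 5.69 CPM in the untreated co-culture and 8.92 CPM in microglia alone. The 10 border-associated macrophage markers summed to 1209 to 1944 CPM in the fibril co-culture, 1682 to 1977 CPM in the untreated co-culture and 1136 to 1609 CPM in microglia alone, so the untreated co-culture lay above microglia alone. Of these, Pf4 was at means of 554 CPM in the fibril co-culture, 606 CPM in the untreated co-culture and 241 CPM in microglia alone and Mrc1 at 157 CPM in the fibril co-culture, 194 CPM in the untreated co-culture and 317 CPM in microglia alone, while Lyve1 and Cd209f had no count in any group. Endothelial markers summed to 4.50 to 64.0 CPM in the fibril co-culture, 18.2 to 81.3 CPM in the untreated co-culture and 28.9 to 113 CPM in microglia alone, and neutrophil and monocyte markers to 40.3 to 71.3 CPM in the fibril co-culture, 47.9 to 105 CPM in the untreated co-culture and 17.2 to 67.1 CPM in microglia alone. Of 10 neutrophil and monocyte markers, 6 were in the table, and most of their sum was Csf3r. Csf3r was at means of 53.0 CPM in the fibril co-culture, 64.7 CPM in the untreated co-culture and 34.2 CPM in microglia alone. No other marker of that list had a group mean above 4.425 CPM. The part of these other cell types in the levels of the target genes was not tested.

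Genes with profiles most like those of the target genes were found as those with the smallest root-mean-square difference of log2 levels over the 11 libraries, after centring each gene on its mean, among 7536 genes of at least 10 CPM on average. Tgfbi was nearest to Cxcl14, a chemokine gene (0.475), then Adgre5, an adhesion receptor gene (0.717), and the kinase gene Ikbke (0.815). Pmepa1 was nearest to Olfml3 (0.715), then Gpr84, a receptor for fatty acids (1.02), and Cspg4 (1.07). edgeR called Cspg4 in neither comparison with microglia alone. Olfml3 was nearest to Pmepa1 (0.715), Cxcl14 (0.974) and Spsb1 (1.04), and Tgm2 to Tgfbi (1.29), Gpr84 (1.31) and Cxcl14 (1.38). By likeness to Tgfbi, Olfml3 ranked 23, Pmepa1 65 and Tgm2 72 of the 7536. Among pathway components Tgfbr1 ranked 135, Smad3 1633, Tgfbr2 3941 and Tgfb1 6376, and Smad7, under 10 CPM on average, was not ranked. The measure takes in the size of a change. The target genes were picked as higher beside neurons, so genes without such a step rank far from them by construction. The points share their 11 libraries, and the measure is a description.

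**Figure D4:**
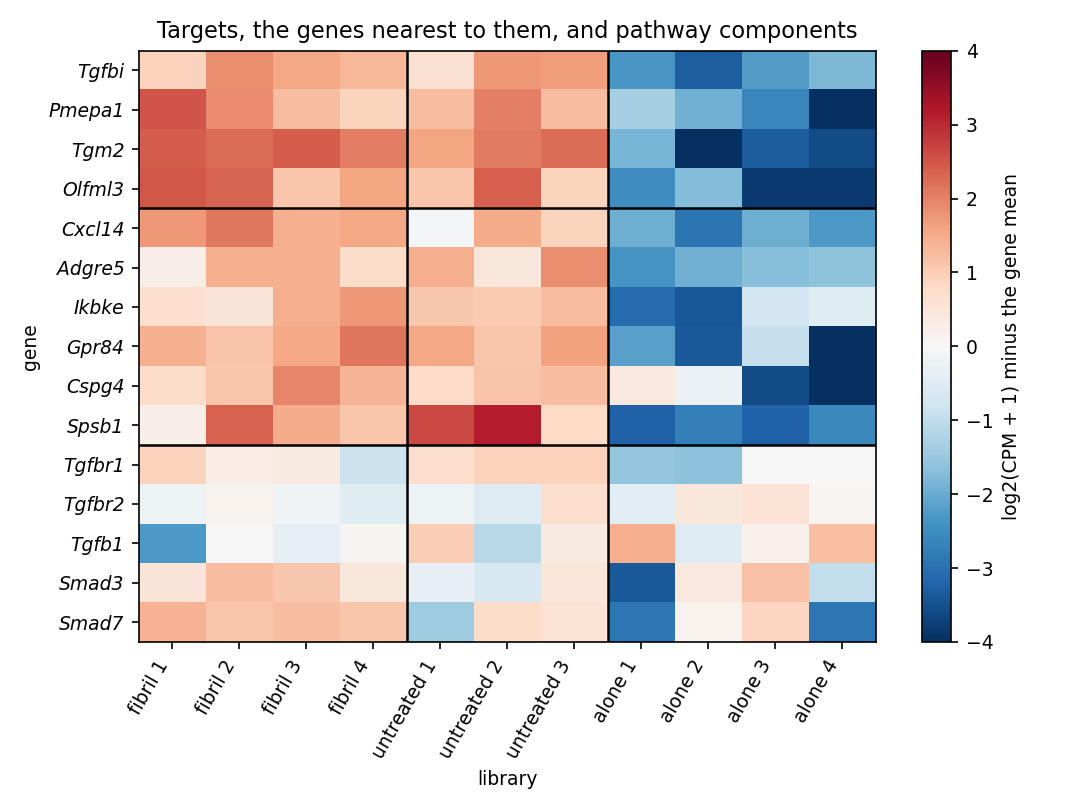
Log2(CPM + 1) of each gene minus its mean over the 11 libraries (colour, red above and blue below, stopped at 4 either way), with libraries of the fibril co-culture, the untreated co-culture and microglia alone from left to right. The top block holds the target genes, the middle block the genes nearest to them and the bottom block the other members of the pathway. The upper blocks change colour between co-cultures and microglia alone, except that Cspg4 in library 1 of microglia alone lies above its mean. The rows for Tgfb1 and Tgfbr2 show no such step.

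Cxcl14 is also a neighbour of Tgfbi on chromosome 13, 313 kb away. Its level was 335, 436, 270.0 and 291 CPM in the fibril co-culture, 96.7, 282 and 188 CPM in the untreated co-culture, and 24.8, 12.2, 25.1 and 19.4 CPM in microglia alone. Between the co-cultures its log2 fold change was 0.82 (SE 0.36) and did not pass (edgeR unadjusted p = 0.0357, BH-adjusted p = 1). Within 500 kb of the 9 genes lay 62 other tested genes, and Cxcl14 was the only 1 called in either comparison with microglia alone. Over all tested genes edgeR called 0.266% higher and 0.0532% lower in the fibril co-culture. In the untreated co-culture it called 0.461% higher and 0.177% lower. A single call among the neighbours is too few to read as a result about the region. The other tested neighbours of Tgfbi were Smad5, a Smad of bone morphogenetic protein signalling, at 29.7 ± 10.8 CPM in the fibril co-culture, 44.1 ± 21.2 CPM in the untreated co-culture and 44.9 ± 20.0 CPM in microglia alone, and Tifab, at 23.8 ± 10.5 CPM in the fibril co-culture, 48.6 ± 22.9 CPM in the untreated co-culture and 9.05 ± 6.18 CPM in microglia alone.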

How the data were processed

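The data are 11 microglial libraries of 3′ mRNA sequencing. The authors deposited raw counts by gene symbol. They also deposited a normalized table, taken as a score, in which 99.8% to 100.0% of values in each library lay within 0.51 of the count divided by 1 size factor. Per the submitters' processing notes, STAR, Partek and DESeq2 were used with mm10; no version is given. Strand use and duplicate removal are not given in the sources used here.

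The analysis used edgeR 4.0.16 under R 4.3.3 (TMM scaling, filterByExpr, quasi-likelihood test on all 11 libraries, two-sided, BH adjustment over 11276 genes, threshold 0.05), and the code was tested on simulated data. SE and 95% intervals of log2 fold changes come from that fit. Groups follow the treatment label; libraries are numbered in order of deposition. The genes and lists were chosen with earlier results of these data known; 1 listed gene is not reported here and is left out of the list counts. From each list the text names the called genes and the 3 with the smallest unadjusted p; for each target gene, the 3 nearest profiles on log2(CPM + 1). Gene positions are from GENCODE M21 (GRCm38) and promoters from RefSeq GRCm38.p6. Alternatives were RLE scaling, totals without the ribosomal RNA gene Rn45s, no low-count filter, a mean of at least 5 CPM, DESeq2 1.42.0, limma 3.58.1 on the normalized table, only the 2 groups compared, each library left out, and a block by library code. Floors of 3 counts and intervals of counts cover counting error only.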

Additional observations from a re-analysis of the deposited data

How the results depend on the processing

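Of 53 log2 fold changes recomputed under each alternative, 6 changed sign in at least 1, and none of these was a called value. Smad3 in the untreated co-culture against microglia alone was at 1.36 with limma, 0.0118 with the replicate block and -0.61 to 0.63 on leaving out 1 library; Tgfb1 was at 0.0842 with the block and Tgfbr2 at -0.59 to 0.0900 on leaving out 1. Between the co-cultures the range on leaving out 1 library was -0.48 to 0.20 for Tgfbr2, -0.16 to 0.54 for Pmepa1 and -0.22 to 0.23 for Tgfbi. The number of the 9 genes called against microglia alone, 4, fell to 1 (Tgfbi) in both comparisons with limma, was 3 in both with only the 2 groups compared and 3 to 4 on leaving out 1 library, and was 5, with Tgfbr1, in the untreated co-culture with no low-count filter.

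The genes called in the fibril co-culture against microglia alone numbered 36 in the chosen analysis, 164 with no low-count filter, 262 with DESeq2, 16 with limma and 23 to 42 on leaving out 1 library. In the untreated co-culture they numbered 72, and 234 with no filter, 47 at a mean of at least 5 CPM, 491 with DESeq2, 27 with limma, 41 with only the 2 groups and 32 to 76 on leaving out 1. Between the co-cultures they numbered 0, and 5 with no filter, 170 with DESeq2, 11 with limma and 0 to 1 on leaving out 1. The cause of these differences was not tested.

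Library codes in the titles fall into sets of consecutive codes, and the labels do not say what a set marks. No set held more than 1 library of a group, and every set but the first held a library of each group. With the set as a replicate block 66 genes were called in the fibril co-culture and 95 in the untreated co-culture against microglia alone, and 0 between the co-cultures. Without the block the calls against microglia alone numbered 36 in the fibril co-culture and 72 in the untreated co-culture. Deviations from group means correlated by -0.0244 to 0.0690 in 10 pairs of libraries of the same set, none over 0.1. The median was 0.0385, against -0.0171 in 30 pairs of different sets. Such correlations over all tested genes cannot decide whether libraries of a set were matched. The set was therefore kept as an alternative and not taken as a pairing in the chosen analysis. With a pseudocount of 5, chosen after seeing the data, 8 of the 12 nearest profiles were the same genes. By target gene, 1 of 3 stayed for Tgfbi, 2 of 3 for Pmepa1 and for Olfml3, and 3 of 3 for Tgm2. Adgre5, Ikbke, Cspg4 and Spsb1 were replaced, so their place among the nearest genes depends on the pseudocount. Smad7, Smad3 and Tgfb1 had at most 385 counts in a library; counting alone would give coefficients of variation of 6.71% to 13.7% in their groups, and the measured ones, 10.6% to 124%, were higher in every group.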

Other observations

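P2ry12 and Tmem119, microglial genes that depend on TGF-beta, are named here after their values were seen. P2ry12, the purinergic receptor gene of resting microglia, was at 6.88 ± 9.62 CPM in the fibril co-culture, 9.70 ± 6.93 CPM in the untreated co-culture and 2.28 ± 3.99 CPM in microglia alone (SD, n = 4, 3 and 4). Tmem119, a microglial membrane protein gene, was at 23.5 ± 14.7 CPM in the fibril co-culture, 40.9 ± 31.8 CPM in the untreated co-culture and 9.32 ± 11.97 CPM in microglia alone, and neither passed in edgeR. Other genes of that list had lower means in the co-cultures: P2ry13 was at 28.8 ± 23.8 CPM in the fibril co-culture, 43.0 ± 14.02 CPM in the untreated co-culture and 48.8 ± 34.5 CPM in microglia alone, and Entpd1 at 10.3 ± 6.52 CPM in the fibril co-culture, 26.9 ± 8.82 CPM in the untreated co-culture and 30.7 ± 20.2 CPM in microglia alone. Of the 33 tested genes of the list, 19 had a log2 fold change above 0 in the fibril co-culture and 24 in the untreated co-culture. The list median was 0.03 in the fibril co-culture, beside -0.04 over all tested genes. In the untreated co-culture it was 0.20, beside -0.05 over all tested genes.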
